A study of Caenorhabditis elegans with 16 samples.

Results

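The precuticle is the apical extracellular matrix that the epidermis and other outward-facing epithelia of the Caenorhabditis elegans embryo secrete before the collagen cuticle is laid down. It coats the embryo while it elongates from an ovoid into a worm, helps to hold the epidermis together under the pull of muscle and actin, shapes narrow tubes such as the excretory duct, and anchors the tips of sensory dendrites. Its known components include zona pellucida (ZP) domain proteins, lipocalins and proteins with extracellular leucine-rich repeats. The genes described here are 8 rows of a table of 46726 genes: noah-1, noah-2, fbn-1, let-653, lpr-3, sym-1, dex-1 and mlt-11. They were picked by symbol with no cutoff on a measured value, but with earlier results of these data known. All 8 were found and all 8 passed the filter on low counts, among 16880 genes tested.

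The 16 libraries are total RNA from embryos of mixed stage, 4 genotypes with 4 independent biological replicates each, which the labels number 2 to 5. The mutants were edc-3(ok1427) (strain RB1311), edc-4(qe49) (strain FD135) and the double mutant carrying both alleles (strain FD146 by the sample labels, while the series' design text names FD135 for it), and the reference was the wild-type strain N2 (WT). All genotypes were grown side by side without treatment, embryos were harvested by bleaching, and each mutant was represented by 1 strain. Both proteins are enhancers of decapping, a step of mRNA decay in which the cap structure is taken off, and the comparisons ask which embryonic transcripts differ in level when either or both are altered.

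Libraries held 34089540 to 52893968 counts. The edc-4 transcript, listed in the table as Y44E3A.6, was at 29.4 to 35.3 CPM (counts per 1000000 counts of a library, with library sizes scaled by TMM factors) in edc-4 and 20.4 to 30.98 CPM in the double mutant, against 139 to 183 CPM in WT. The edc-3 transcript was at 57.4 to 69.3 CPM in edc-3 and 65.0 to 82.5 CPM in the double mutant, against 70.8 to 97.8 CPM in WT. The edc-3 libraries thus all lay below WT, narrowly, but the double mutant overlapped WT, so the level does not check the edc-3 allele there. Because the embryos were of mixed stage, an embryo age score was computed per library as the mean log2 CPM of 26 body wall muscle genes minus that of 29 early zygotic genes, none of them a precuticle gene. It is a score from transcripts and not a staging of the embryos. It ranged from 3.96 to 4.96 in edc-3, 3.21 to 5.43 in edc-4 and 3.02 to 4.64 in the double mutant, against 4.28 to 5.69 in WT. The edc-4 and double libraries numbered 4 stood apart at 3.21 and 3.02, and the genotype comparisons and the age relations are given with and without the libraries numbered 4.

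The 8 genes lie on chromosomes I, III, IV, V and X, and all are protein coding. Positions are those of the WBcel235 build. On chromosome I, noah-1 (WBGene00016422) spans 5874416 to 5878958 on the minus strand. The related noah-2 (WBGene00009926) lies on chromosome IV from 14091254 to 14096626, and let-653 (WBGene00002827) on the same chromosome from 11885613 to 11891082. Chromosome III holds fbn-1 (WBGene00022816) from 7625386 to 7641078 and dex-1 (WBGene00017028) from 5526104 to 5535507. The X chromosome holds lpr-3 (WBGene00012261) from 11057401 to 11059793 and sym-1 (WBGene00006366) from 14581622 to 14584378, and chromosome V holds mlt-11 (WBGene00012186) from 20667205 to 20678537. The genes other than noah-1 are on the plus strand. Counts are per whole gene, and the exons annotated to each gene join to between 2.07 kb for lpr-3 and 9.80 kb for mlt-11.

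Some of these genes share exonic bases with an annotated neighbour, and whether the counting used strand is not given in the sources used here. On the opposite strand, lpr-3 shares 110 bases with C09F12.6, sym-1 shares 211 bases with C44H4.10 and 24 with C44H4.4, and fbn-1 shares 45 bases with upp-1. On the same strand, mlt-11 shares 90 bases with W01F3.4 and a similar stretch with W01F3.5, and noah-2 shares 21 bases with a piRNA gene. No annotated gene overlaps noah-1, let-653 or dex-1.

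All of these transcripts were well measured in embryos of every genotype. The fewest counts in any library were 1581, for let-653, and the most were 80363, for noah-1. Divided by exonic length and averaged over the 16 libraries, noah-1 stood highest at 377 CPM per kb, followed by noah-2 at 341, sym-1 at 159.9, lpr-3 at 131, mlt-11 at 101, fbn-1 at 92.1, dex-1 at 58.8 and let-653 at 20.8 CPM per kb. The order held within libraries for most neighbours: noah-1 was above noah-2 per kb in 16 of 16 libraries, sym-1 above lpr-3 in 15 and lpr-3 above mlt-11 in 16. The exception was mlt-11 and fbn-1, with mlt-11 the higher per kb in 12 of 16 libraries and a log2 ratio between -0.50 and 0.50, so these neighbours did not differ beyond their spread. Over all libraries the ranges of neighbours overlapped except for noah-2 above sym-1 and dex-1 above let-653. In total CPM, without division by length, the mean levels placed noah-1, noah-2, fbn-1 and mlt-11 near the top of the 16880 tested genes, at percentiles 99.8, 99.5, 99.5 and 99.6, and let-653 at percentile 78.9.

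The ZP domain genes are described first. NOAH-1 and NOAH-2 are large ZP proteins of the embryonic sheath that carries the force of elongation. In replicates 2 to 5 in that order, noah-1 was at 1554, 1606, 1301 and 1442 CPM in edc-3, at 1523, 1610.2, 963 and 1370.4 CPM in edc-4 and at 1557, 1621, 1128 and 1369.5 CPM in the double mutant, against 1381, 1235, 1538 and 1682 CPM in WT. The highest of these libraries was a WT one and the lowest was edc-4 replicate 4, and every mutant genotype overlapped WT. The mean level of noah-1 was 1476 ± 135.19 CPM in edc-3 and 1367 ± 287 in edc-4, and 1419 ± 221 for the double mutant, against 1459 ± 193 in WT (SD, n = 4 each). For noah-2 the mean level was 918 ± 87.1 CPM in edc-3 and 843 ± 221 in edc-4, and 821 ± 174 for the double mutant, against 917 ± 143 in WT (SD, n = 4 each). The lowest noah-2 libraries were edc-4 replicate 4 at 533 CPM and double replicate 4 at 575 CPM, and WT libraries ranged from 751 to 1059 CPM.

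FBN-1 is a fibrillin-like ZP protein that helps the epidermis and pharynx keep their shape under strain, and LET-653 is a ZP protein that lines the lumen of the excretory duct. The level of fbn-1 was 896, 982, 867 and 860.3 CPM in edc-3, 842, 958, 689 and 865 CPM in edc-4 and 919, 976, 771 and 872 CPM in the double mutant, against 850.1, 837, 851 and 1037 CPM in WT. In WT, 3 libraries lay between 837 and 851 CPM and replicate 5 stood above them, and each mutant genotype overlapped WT. Means of fbn-1 were 901 ± 56.1 CPM in edc-3 and 838 ± 111.7 in edc-4, and 884 ± 87.1 for the double mutant, against 894 ± 95.7 in WT (SD, n = 4 each). The level of let-653 was much lower, at 55.0 ± 5.08 CPM in edc-3 and 52.9 ± 7.08 in edc-4, and 54.5 ± 7.52 for the double mutant, against 56.6 ± 5.86 in WT (SD, n = 4 each). Over the 16 libraries let-653 spanned 43.5 to 62.6 CPM, the narrowest span of the 8 genes at 1.44-fold.

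The remaining genes encode other kinds of matrix protein. LPR-3 is a secreted lipocalin, of a family that carries small lipophilic molecules, and it is needed for intact precuticle. Its gene was at 299, 297, 238 and 268 CPM in edc-3, at 325, 289, 154 and 259 CPM in edc-4 and at 278, 310.1, 172 and 267 CPM in the double mutant, against 268, 217, 342 and 339 CPM in WT. The edc-4 and double libraries numbered 4 were the lowest, WT itself spanned 217 to 342 CPM, and all 3 mutants overlapped WT. SYM-1 is a secreted protein with leucine-rich repeats that helps to attach muscle to the body wall. The mean level of sym-1 was 408 ± 31.9 CPM in edc-3 and 373 ± 67.7 in edc-4, and 385 ± 69.8 for the double mutant, against 393 ± 43.5 in WT (SD, n = 4 each).

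DEX-1 is a matrix protein that anchors dendrite tips of sensory neurons and acts in the epidermis, and MLT-11 is a secreted protein with Kunitz-type protease inhibitor domains, known from its part in molting. The level of dex-1 was 259, 256, 207 and 238 CPM in edc-3, 290.0, 271, 154 and 235.2 CPM in edc-4 and 234.5, 258, 152 and 217 CPM in the double mutant, against 240.1, 200.4, 289 and 291 CPM in WT. The level of mlt-11 was 1162, 1149.8, 881 and 966 CPM in edc-3, 1224, 1165, 514 and 946 CPM in edc-4 and 1013, 1162, 560.1 and 954 CPM in the double mutant, against 995, 822, 1149 and 1235 CPM in WT. For both genes the 2 lowest libraries were edc-4 and double replicate 4 and the third lowest was WT replicate 3, so low libraries were found in WT as well as in the mutants. The widest span of the 8 genes over all libraries was that of mlt-11, 2.401-fold.

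**Figure D1:**
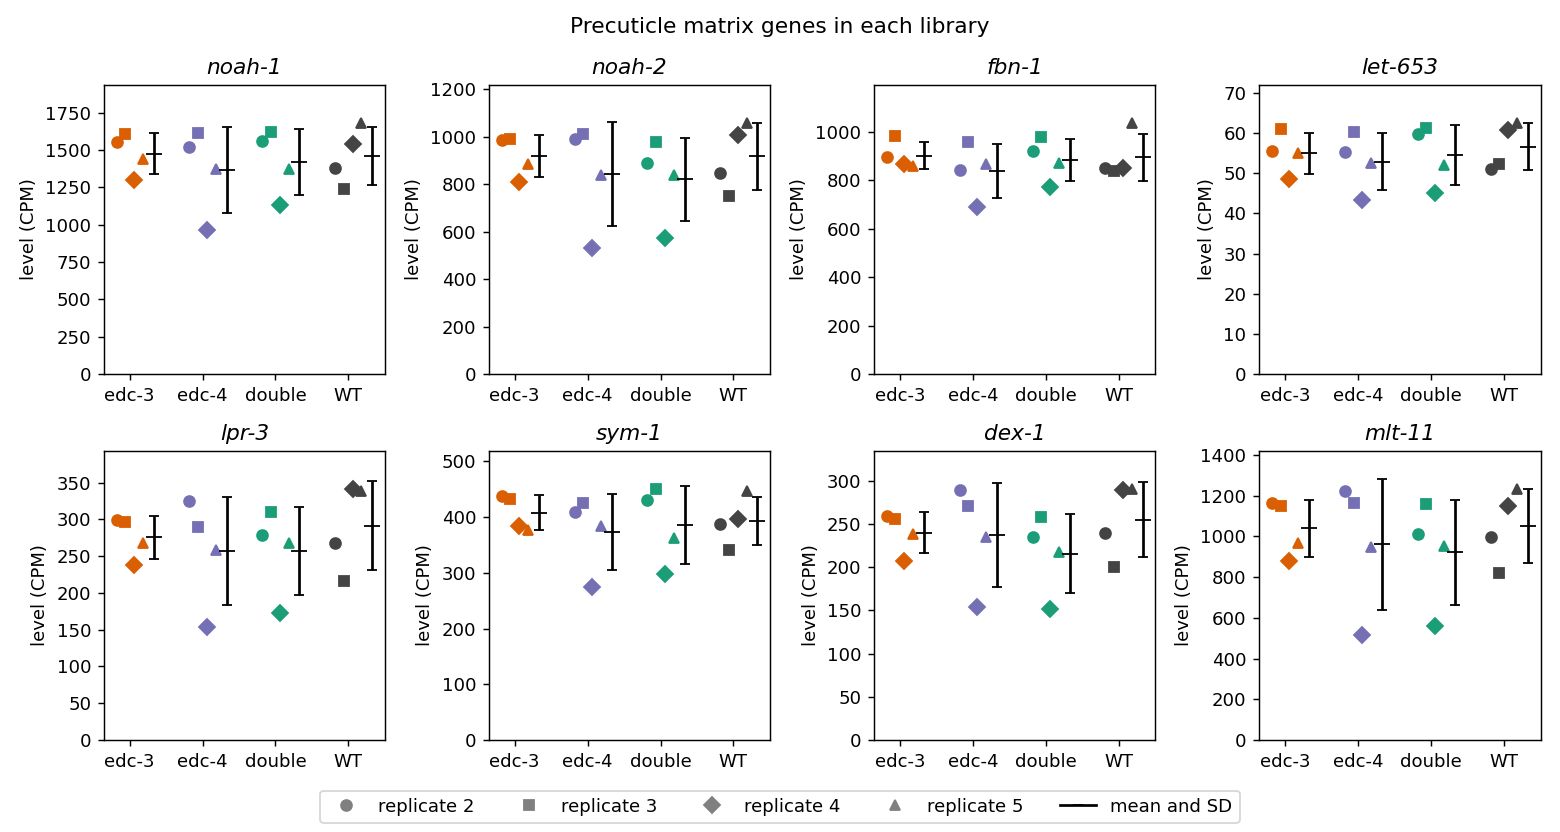
Level of each precuticle gene in each library, in TMM-scaled CPM on linear axes from 0, with libraries grouped by genotype, the shape of a point giving the replicate and the bar the mean and SD of 4 libraries. The genotypes overlap for every gene, and the diamonds (replicate 4) are lowest in edc-4 and the double mutant but not in WT.

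No precuticle gene passed the test against WT in any mutant. In edc-3, 0 of 8 passed at a Benjamini-Hochberg adjusted p under 0.05 by the edgeR quasi-likelihood test, where 0.142% of all tested genes did. The count was likewise 0 of 8 in edc-4 (0.142% of all genes) and 0 of 8 in the double mutant (0.207% of all genes). At an unadjusted p under 0.05 the counts were also 0 of 8 in each comparison, beside 2.65% of all genes in edc-3 and 4.98% in edc-4, and 11.5% for the double mutant. None of the 8 had libraries of a mutant that all lay on 1 side of the WT libraries, beside 1.91%, 2.3% and 7.43% of all genes in the same 3 comparisons. DESeq2 also called 0 of 8 in each. In a single test of any difference among the 4 genotypes, adjusted p lay between 0.974 and 0.988 for the 8 genes, and 0.278% of all genes passed.

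The estimates were close to 0. In edc-3 the log2 fold changes ran from -0.089 for dex-1 to 0.054 for sym-1, with a median of -0.0062 over the 8 genes and -0.0046 over all tested genes, and 4 of 8 were below 0 as were 51.1% of all genes. In edc-4 they ran from -0.18 for lpr-3 to -0.075 for sym-1, with a median of -0.10, against a median of 0.0050 over all genes; 8 of 8 were below 0, beside 49.2% of all genes. In the double mutant they ran from -0.24 for dex-1 to -0.015 for fbn-1, with a median of -0.11, against -0.0097 over all genes; 8 of 8 were again below 0, beside 51.2% of all genes. These 3 comparisons share the WT libraries, and the 8 genes moved together from library to library, so the counts below 0 are not 8 separate observations. The signs of the edc-4 and double values also turned on the libraries numbered 4: without them the median was 0.087 in edc-4, 0.042 in the double mutant and 0.078 in edc-3, again with 0 of 8 passing in each. With library size alone and no TMM factors the median in the double mutant was -0.17.

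The intervals show what size of change these data could hold. The largest estimate was that of dex-1 in the double mutant, at 215 ± 45.7 CPM against 255 ± 43.4 CPM in WT (SD, n = 4 each), a fold of 0.844 with a 95% interval of 0.645 to 1.11 (log2 -0.24, SE 0.18, adjusted p = 0.553 by the edgeR quasi-likelihood test). That log2 value ranged from -0.35 to -0.11 with 1 library left out at a time and was -0.047 without the libraries numbered 4. The most precise gene was fbn-1, whose fold in the double mutant was 0.99 with an interval of 0.835 to 1.17. The least precise was mlt-11, with a fold of 0.878 in the double mutant and an interval of 0.622 to 1.24. Of 24 intervals, 8 genes in each mutant against WT, 0 reached a 2-fold rise and 0 reached a fold of 0.5, and 0 reached a 1.5-fold rise. A fall of 1.5-fold lay within 5 of the 24, those of lpr-3 and mlt-11 in edc-4 and of lpr-3, dex-1 and mlt-11 in the double mutant.

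**Figure D2:**
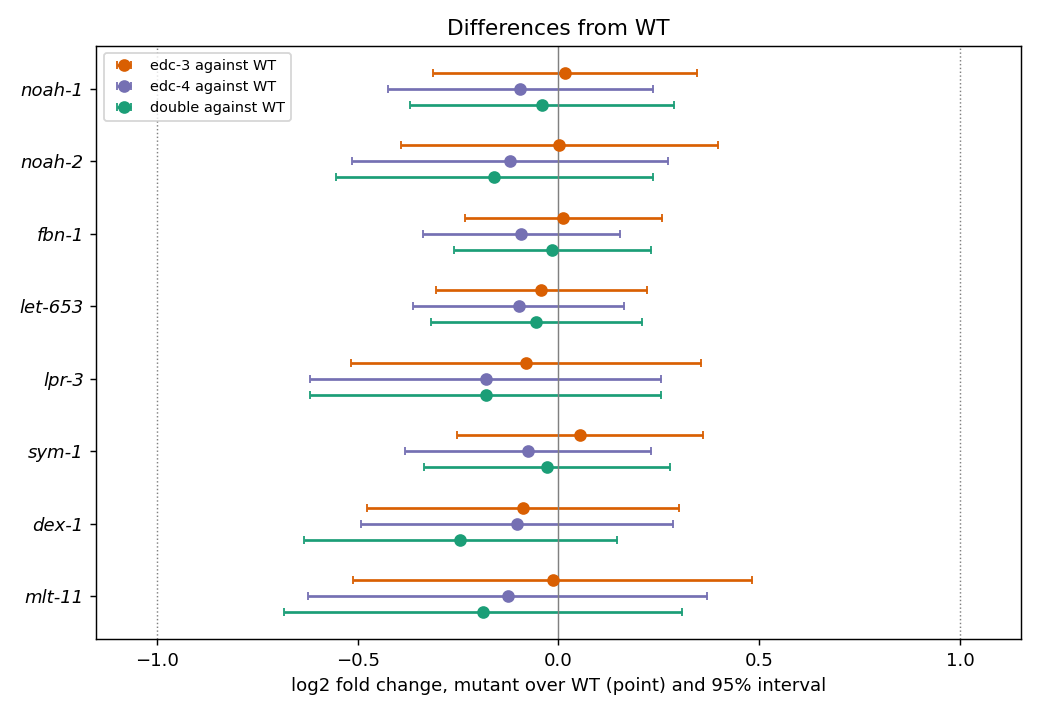
Log2 fold change of each precuticle gene in each mutant over WT from the edgeR fit, with 95% intervals, and dotted lines at a 2-fold change in either direction. Every interval spans 0 and lies inside the dotted lines, and those of mlt-11 and lpr-3 are the widest.

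Adding 1 allele to the other gave no call either. In the double mutant against edc-3 the log2 fold changes of the 8 genes ran from -0.17 to -0.012, and 8 of 8 were below 0, beside 50.9% of all genes. By the edgeR quasi-likelihood test 0 of 8 passed, beside 0.0355% of all genes, and 0 of 8 had an unadjusted p under 0.05, beside 5.01%; 0 of 8 separated the libraries of the genotypes, beside 4.39%. The sign depended on which libraries were left out. Without double replicate 4 alone, 2 of 8 were below 0 and the median was 0.024, against -0.092 with it. Without all libraries numbered 4 the median was -0.018 with 6 of 8 below 0. In the double mutant against edc-4 they ran from -0.14 to 0.077 with 4 of 8 below 0, beside 52.5% of all genes. There 0 of 8 passed (0.0296% of all genes), 0 of 8 had an unadjusted p under 0.05 (2.81%) and 0 of 8 separated the libraries (2.1%). The median was 0.021, against -0.022 without the libraries numbered 4, 0.12 without double replicate 4 and -0.13 without edc-4 replicate 4. The interaction, which asks whether both alleles together differ from the sum of each alone, ran from -0.052 for dex-1 to 0.086 for let-653, with 4 of 8 below 0, beside 54.5% of all genes. For it 0 of 8 passed, beside 0.0355% of all genes, and 0 of 8 had an unadjusted p under 0.05, beside 1.62%. The median interaction was 0.015 with all libraries and -0.11 without the libraries numbered 4 (7 of 8 below 0). It was 0.11 without double replicate 4 (0 of 8 below 0) and -0.11 without edc-4 replicate 4 (7 of 8 below 0). It also moved with other single libraries, to -0.054 without double replicate 3 and 0.093 without edc-4 replicate 3, so its sign was not settled. The interaction intervals were wider, with bounds from 0.595 to 1.62 as folds. Over the 5 comparisons of 2 genotypes, 40 intervals in all, the bounds ran from 0.622 to 1.40.

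The main variation of these genes was between libraries of the same genotype. In edc-4 replicate 4 all 8 genes lay below their edc-4 mean, on average by 0.52 on the log2 scale, and in double replicate 4 all 8 lay below the double mean, on average by 0.41. All 8 were also below the genotype mean in edc-3 replicate 4 (mean deviation -0.16), WT replicate 3 (-0.25) and WT replicate 2 (-0.077). All 8 were above it in replicate 3 of each mutant (0.12 in edc-3 and 0.25 in edc-4, and 0.25 for the double mutant), in replicate 2 of edc-4 and the double mutant (0.23 and 0.14), and in WT replicate 5 (0.21). The mutants thus moved alike by number in replicates 2 to 4, with mean deviations of 0.089, 0.23 and 0.14 in replicate 2 of edc-3, edc-4 and the double mutant. WT did not: its replicate 3 was the lowest of WT, while replicate 3 was the highest of each mutant, and its replicate 4 lay above the WT mean (0.11).

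**Figure D3:**
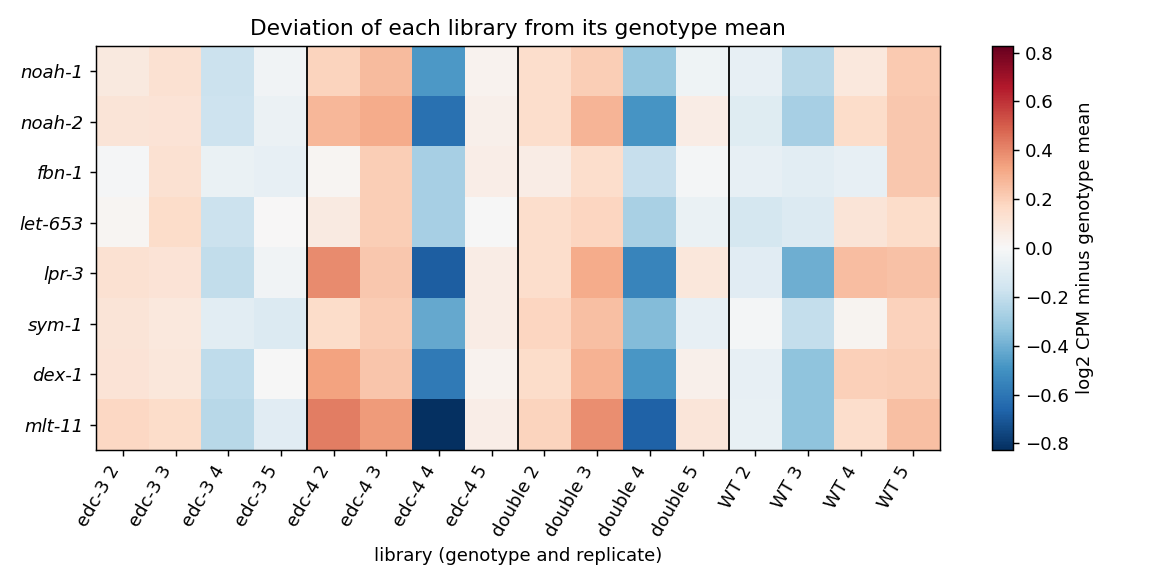
Deviation of each precuticle gene (rows) in each library (columns, by genotype and replicate) from the mean of its own genotype, on the log2 CPM scale, red above and blue below. Columns are nearly uniform in colour, with edc-4 replicate 4 and double replicate 4 the darkest blue and mlt-11 and lpr-3 the strongest rows.

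The size of these deviations differed between genes. The SD within genotypes was 0.40 on the log2 scale for mlt-11, 0.35 for lpr-3, 0.30 for noah-2 and 0.30 for dex-1, and 0.24 for noah-1, 0.22 for sym-1, 0.18 for let-653 and 0.15 for fbn-1. The median over the 3533 tested genes whose mean level fell between those of let-653 and noah-1 was 0.19, so mlt-11 stood at percentile 94.8 of that set and fbn-1 at percentile 32.6. The ratio of mlt-11 to fbn-1 in CPM shows the contrast: it ran from 0.727 in double replicate 4 to 1.45 in edc-4 replicate 2, a 1.999-fold span. The ratio of lpr-3 to dex-1, which both had large deviations, stayed between 1.005 and 1.23 and had a coefficient of variation of 4.90% over the 16 libraries. The ratio of noah-1 to noah-2 averaged 1.61 ± 0.0244 in edc-3 and 1.64 ± 0.116 in edc-4, and 1.75 ± 0.151 for the double mutant, against 1.596 ± 0.0537 in WT (SD, n = 4 each). Its highest values were 1.96 in double replicate 4 and 1.81 in edc-4 replicate 4. Each mutant overlapped WT, which ranged from 1.52 to 1.65.

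After each genotype's mean was subtracted, all 28 pairs of the 8 genes were positively correlated across the 16 libraries, with Pearson's r from 0.80 for fbn-1 with lpr-3 to 0.997 for lpr-3 with dex-1 and a median of 0.948. Without the libraries numbered 4 the range over the 28 pairs was 0.67 to 0.989 and the median was 0.899. All genes of a library share its depth, scaling and embryo age, which differed between libraries, and these correlations were not tested. Fewer cells that make a transcript and less transcript per cell cannot be told apart in whole-embryo RNA.

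The levels of the 8 genes were compared with the embryo age score, 8 relations in all, over the 16 libraries. The closest relation was that of dex-1, with Pearson's r of 0.929 (permutation p = 1e-05, the smallest that the resampling can give) and Spearman's rho of 0.879 (permutation p = 2e-05). Without the 2 libraries farthest from the median score, edc-4 and double replicate 4, the r of dex-1 was 0.803 (permutation p = 0.00048, n = 14). The relation likewise held without them for lpr-3 (r = 0.907 over 16 libraries and 0.761 over 14, permutation p = 0.00159), mlt-11 (r = 0.88 and 0.658, permutation p = 0.0102) and noah-2 (r = 0.874 and 0.642, permutation p = 0.0128).

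For the other 4 genes Pearson's r no longer passed without those 2 libraries. The permutation p were not adjusted for the 8 relations, and the share of all genes passing over these 14 libraries was not computed. The r of noah-1 was 0.782 over 16 libraries and 0.4698 over 14 (permutation p = 0.0924), and its Spearman's rho over 16 was 0.612 (permutation p = 0.0134). That of let-653 was 0.747 over 16 and 0.424 over 14 (permutation p = 0.132), with a rho over 16 of 0.60 (permutation p = 0.0159). In ranks over 16 libraries the relation of these 2 genes therefore passed, and in sym-1 and fbn-1 it did not. For sym-1 it was 0.716 and 0.206 (permutation p = 0.48), with Spearman's rho of 0.497 over 16 libraries (permutation p = 0.0516). For fbn-1 it was 0.5396 and -0.065 (permutation p = 0.824), with Spearman's rho of 0.288 over 16 (permutation p = 0.278). WT replicate 4, with the highest score of 5.69, held the most lpr-3 of any library at 342 CPM but 851 CPM of fbn-1, below the WT mean of 894 CPM. With the genotype means subtracted, r over the 16 libraries ran from 0.59 for fbn-1 to 0.929 for lpr-3. Over the 16 libraries 8 of 8 relations had a permutation p of Pearson's r under 0.05, beside 62.2% of all tested genes. With all 4 libraries numbered 4 left out it was 3 of 8, those of dex-1, lpr-3 and mlt-11, beside 31.4% of all genes, and the r of noah-2 was 0.56.

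**Figure D4:**
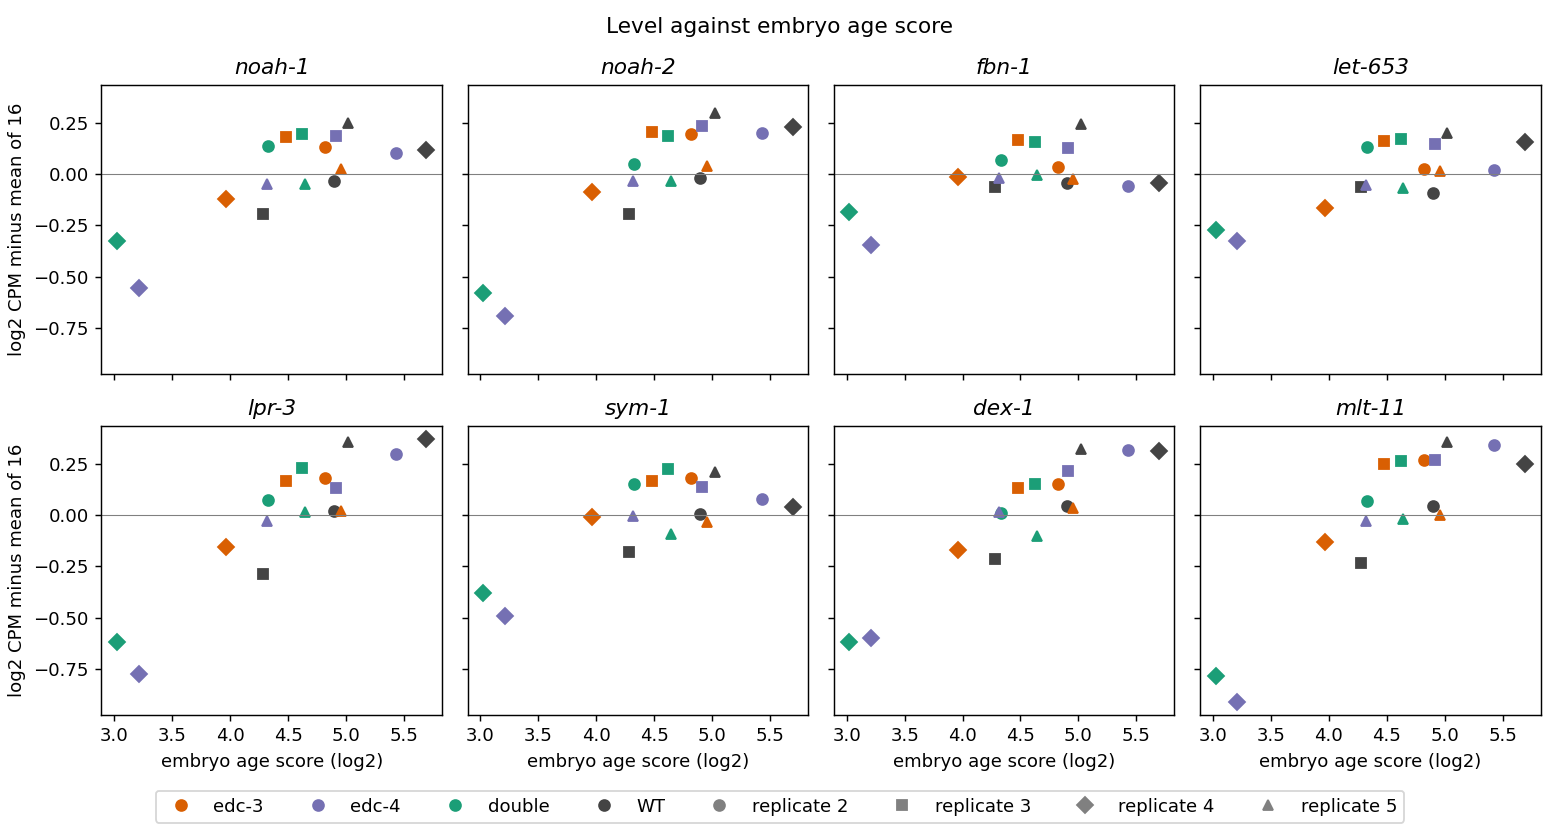
Level of each precuticle gene (log2 CPM minus its mean over 16 libraries) against the embryo age score of the library, with colour for genotype and shape for replicate. The points of dex-1 and lpr-3 climb over the whole range of the score, while those of fbn-1 form a flat band once edc-4 replicate 4 and double replicate 4, at scores of 3.21 and 3.02, are set aside.

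When the score was a term beside the genotypes in the edgeR fit over all genes, 7 of 8 precuticle genes passed for it by the quasi-likelihood test, beside 56.9% of all tested genes. The slope of mlt-11 was 0.51 on the log2 scale per unit of score (SE 0.071), that of lpr-3 0.46 (SE 0.054), that of dex-1 0.40 (SE 0.049) and that of noah-2 0.38 (SE 0.059). Slopes were 0.28 (SE 0.058) for noah-1, 0.24 (SE 0.058) for sym-1 and 0.19 (SE 0.047) for let-653, and adjusted p over all genes lay between 1.57e-06 for lpr-3 and 0.00218 for let-653. The slope of fbn-1 was 0.13 (SE 0.054) and did not pass (adjusted p = 0.056). In the same fit the genotype differences from WT had medians of 0.13 in edc-3 and 0.031 in edc-4, and 0.15 for the double mutant, with 0 of 8 passing in each and the lowest adjusted p at 0.502. The mean score was 4.56 ± 0.44 in edc-3 and 4.47 ± 0.95 in edc-4, and 4.15 ± 0.77 for the double mutant, against 4.97 ± 0.58 in WT (SD, n = 4 each). In replicate 4 it was 3.96, 3.21 and 3.02 in these mutants, against 5.69 in WT. In the other libraries it was 4.48 to 4.96, 4.32 to 5.43 and 4.33 to 4.64, against 4.28 to 5.02 in WT. The part of the score in the genotype values was not tested beyond that fit.

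Other genes of the embryonic surface were read from the fit of the genotypes alone, from lists drawn up by gene name. Of 46 tested genes of the apical matrix that are not among the 8 (ZP domain genes of the cut and cutl families, further lipocalins, let-4, egg-6, dyf-7 and others), 0 passed in any mutant, and an unadjusted p under 0.05 was found for 0 in edc-3, for 3 in edc-4 and for 6 in the double mutant, beside 2.65%, 4.98% and 11.5% of all genes. Their median log2 fold change was -0.099 in edc-3 and -0.21 in edc-4, and -0.20 for the double mutant, with 40, 43 and 40 of 46 below 0, beside 51.1%, 49.2% and 51.2% of all genes. Most of them followed the library pattern of the 8 genes (below), so these counts are not separate observations. Their mean log2 CPM in replicate 4 was 3.99, 3.73 and 3.82 in the mutants, against 4.52 in WT. The other mutant libraries, at 4.03 to 4.42, overlapped the other WT libraries, at 4.12 to 4.34. Of 19 molting factors, 33 genes of the cytoskeleton and junctions used in elongation, 11 epidermal regulators and 16 cuticle collagens, 0 passed in any mutant, and at most 4 of a list had an unadjusted p under 0.05 in a comparison; medians ran from -0.14 to 0.12. The early zygotic list, 29 genes first transcribed in young embryos, had medians of 0.30, 0.40 and 0.48 in edc-3, edc-4 and the double mutant, with 0 passing and 1, 1 and 7 at an unadjusted p under 0.05. The mean log2 CPM of that list was 2.65 to 3.20 in edc-3, 2.35 to 3.51 in edc-4 and 2.71 to 3.64 in the double mutant, against 2.00 to 2.95 in WT. Replicate 4 held the lowest WT value, 2.00, and the highest of each mutant, 3.20, 3.51 and 3.64. The other mutant libraries, at 2.35 to 2.95, overlapped the other WT libraries, at 2.51 to 2.95. Body wall muscle (26 genes) had medians of -0.091, -0.14 and -0.32, neurons (22 genes) -0.10, -0.12 and -0.23, and intestine (11 genes) -0.090, -0.097 and -0.38, with 0 passing in any mutant and at most 3 of a list at an unadjusted p under 0.05. For muscle the mean log2 CPM in replicate 4 was 7.16, 6.73 and 6.66 in the mutants, against 7.69 in WT. The other mutant libraries, at 7.27 to 7.78, overlapped the other WT libraries, at 7.23 to 7.54. None of these lists was fitted again without the libraries numbered 4.

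Markers of oocytes and adults were also read. The mean log2 CPM of 23 tested oocyte and maternal genes was 5.70 to 6.64 in edc-3, 5.67 to 6.11 in edc-4 and 6.32 to 6.53 in the double mutant, against 4.65 to 6.21 in WT. Of these genes 3 rose in edc-3 and 3 rose when both alleles were combined, while in edc-4 0 passed. Of all genes 0.142%, 0.207% and 0.142% passed in these 3 comparisons, in either direction. In both genotypes they were chs-1, for eggshell chitin synthase (log2 2.29 in edc-3, 2.38 in the double), and egg-1 and egg-2, for oocyte surface proteins of fertilization (log2 1.83 and 1.64 in edc-3, and 2.03 and 1.87 in the double mutant). Adjusted p ran from 9.43e-05 to 0.04 by the edgeR quasi-likelihood test. At an unadjusted p under 0.05 the list held 7 of 23 genes in edc-3, 8 in the double mutant and 0 in edc-4. The shares of all genes were 2.65%, 11.5% and 4.98%. Below 0 were 2, 0 and 1 of 23 in the same order, beside 51.1%, 51.2% and 49.2% of all genes. Whether these oocyte and maternal values bear on the precuticle values was not tested. Of 6 yolk protein genes of the adult intestine 1 passed the filter, at 0.577 to 2.22 CPM over all libraries, and it was not called.

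The library-to-library pattern of the precuticle genes was shared by many other genes. The deviations from the genotype means of each of 9605 other genes with at least 5 CPM were correlated with the mean standardized deviation of the 8 over the 16 libraries. The 10 most alike were T01D3.3 (r = 0.996), grdn-1 (0.988), ugt-57 (0.987), ZC449.5 (0.986), syg-2 (0.985), sup-37 (0.982), mua-3 (0.981), ttx-1 (0.981), fasn-1 (0.98) and syg-1 (0.98). Among these, MUA-3 is a receptor that ties the epidermis to the cuticle, FASN-1 is fatty acid synthase, SYG-1 and SYG-2 are a pair of immunoglobulin-type adhesion proteins, and TTX-1 is a homeodomain factor of a thermosensory neuron. In all, 423 genes (4.404%) had r above 0.9 and 107 (1.11%) above 0.95. Each precuticle gene was itself compared with the mean of the other 7, which gave r from 0.88 for fbn-1 to 0.993 for noah-1.

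By list, the elongation cytoskeleton and junction genes had a median r of 0.890 (33 genes), cuticle collagens 0.888 (8 genes), epidermal regulators 0.860 (11 genes), body wall muscle 0.827 (26 genes), other apical matrix genes 0.751 (35 genes), molting factors 0.718 (15 genes), intestine 0.689 (10 genes) and neurons 0.628 (20 genes). Early zygotic genes had a median of -0.776, with 0 of 17 above 0, and oocyte and maternal genes one of -0.279 (23 genes), beside -0.161 over all genes compared. The list genes closest to the precuticle pattern were named after their values were seen. The closest were dlg-1 (0.977), which organizes epidermal junctions, and the transcription factor gene peb-1 (0.973). Then came rhgf-2 (0.970), rga-2 (0.969) and ajm-1 (0.967), all from the elongation cytoskeleton and junction list. Next were the ZP gene cutl-24 (0.966) and let-4 (0.966), for a leucine-rich repeat protein of the precuticle. These correlations describe the 16 libraries and were not tested.

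**Figure D5:**
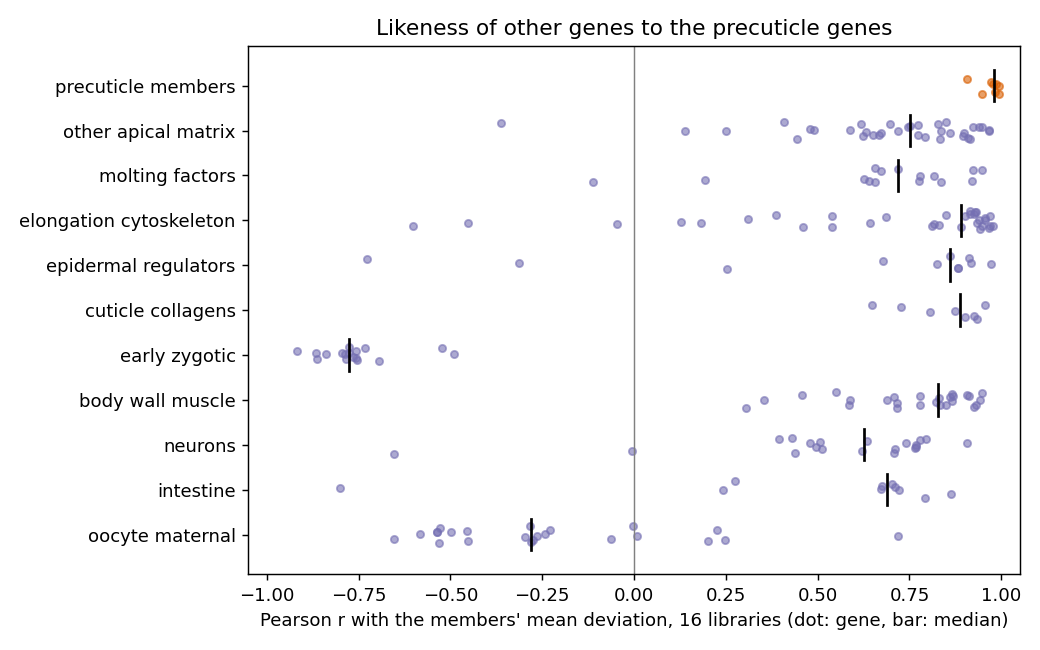
Pearson's r of single genes (dots) with the mean library-to-library deviation of the 8 precuticle genes over 16 libraries, by gene list, with the list median as a bar. The precuticle genes, which make up that mean, sit at the right, the medians of the matrix, molting, epidermal, muscle, neuron and intestine lists lie above 0.6, and all early zygotic genes lie below 0.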

How the data were processed

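Stranded total RNA libraries (TruSeq Gold kit, per the labels' protocols) were made from 16 samples of mixed-stage embryos. The deposited table holds raw counts of reads per gene, for which the submitters' processing notes name Trimmomatic, STAR and HTSeq on WBcel235, as well as edgeR and limma. Tool versions and the strand setting of the counting are not stated in these sources. Positions and exonic lengths came from the Ensembl release 115 annotation of WBcel235.

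The analysis used R 4.3.3 and edgeR 4.0.16. Low genes were removed by filterByExpr (count of at least 10, total of at least 15), and the rest were scaled with TMM factors and fitted by quasi-likelihood with a mean per genotype over all 16 libraries. P-values were adjusted by Benjamini-Hochberg over 16880 genes, threshold 0.05. The common biological coefficient of variation was 0.193. Log2 CPM used a prior count of 2. Permutation tests were two-sided with 100000 resamples, and with 10000 for the share of all genes.

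Alternatives were DESeq2 1.42.0, no TMM factors, no filter, only the compared groups, a replicate block, an age covariate, each library left out in turn and all libraries numbered 4 left out. The replicate numbers were not taken to pair samples. The 8 genes, the other lists and the alternatives were chosen with earlier results of these data known. Genes named were the 8, list genes past the threshold, up to 2 risers and 2 fallers per list and comparison (egg-2 was added after its values were seen), and the 10 genes most alike. No nucleotide or protein sequence was used here.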

Additional observations from a re-analysis of the deposited data

Results flagged for a closer look

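For fbn-1, the 1037 CPM of WT replicate 5 stood apart from the other WT libraries: its gap to the next was 0.931 of the range of the group, above the critical value of 0.829 for 4 samples (Dixon's test). It was the only one found among 32 sets of 4 libraries, 8 genes in 4 genotypes, and chance alone gives about 1 in 20. All 8 precuticle genes were above their WT mean in that library.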

How the results depend on the processing

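Of 776 values of the 8 genes in 97 alternative fits, 0 passed the threshold, 0 had an unadjusted p under 0.05, and the lowest adjusted p was 0.357. Of 360 values against WT, 71 had the opposite sign to the reported one, all without a call. With the 4 libraries numbered 4 left out, log2 values turned positive in edc-3 (0.046 for let-653, 0.068 for lpr-3, 0.041 for dex-1 and 0.10 for mlt-11), in edc-4 (0.078 for noah-1, 0.11 for noah-2, 0.031 for let-653, 0.096 for lpr-3, 0.063 for sym-1, 0.13 for dex-1 and 0.14 for mlt-11) and in the double mutant (0.078 for noah-1, 0.024 for noah-2, 0.020 for fbn-1, 0.058 for let-653, 0.052 for lpr-3, 0.079 for sym-1 and 0.032 for mlt-11). With the age covariate they did so in edc-3 (0.037 for let-653, 0.13 for lpr-3, 0.087 for dex-1 and 0.21 for mlt-11), in edc-4 (0.028 for noah-1, 0.043 for noah-2, 0.018 for lpr-3, 0.033 for sym-1, 0.070 for dex-1 and 0.070 for mlt-11) and in the double mutant (0.18 for noah-1, 0.14 for noah-2, 0.084 for fbn-1, 0.097 for let-653, 0.18 for lpr-3, 0.16 for sym-1, 0.069 for dex-1 and 0.19 for mlt-11). With DESeq2 fbn-1 was at 0.0088 in the double mutant, and noah-2 in edc-3 was at -0.0013 with only those 2 groups in the fit. With a replicate block noah-2 in edc-3 was at -0.021, and the block changed no call. Deviations of same-numbered libraries over all genes correlated between -0.49 and 0.66. In replicate 4 the correlations were 0.47 to 0.66 between mutants and -0.49 to -0.33 between a mutant and WT, so the numbers were not taken to pair samples. The causes were not tested.

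With each library left out in turn, values that crossed 0 ranged in edc-3 from -0.068 to 0.088 for noah-1, -0.095 to 0.076 for noah-2, -0.040 to 0.087 for fbn-1, -0.10 to 0.0038 for let-653, -0.21 to 0.0046 for lpr-3, -0.021 to 0.12 for sym-1 and -0.13 to 0.070 for mlt-11. In edc-4 they ranged from -0.18 to 0.041 for noah-1, -0.22 to 0.047 for noah-2, -0.14 to 0.047 for sym-1, -0.22 to 0.056 for dex-1 and -0.26 to 0.082 for mlt-11. In the double mutant they ranged from -0.12 to 0.054 for noah-1, -0.061 to 0.064 for fbn-1, -0.11 to 0.026 for let-653 and -0.11 to 0.076 for sym-1. Values that kept their sign also moved, such as dex-1 in the double mutant (-0.35 to -0.11) and lpr-3 in edc-4 (-0.32 to -0.00054). The number of the 8 genes related to the age score at a permutation p under 0.05 was 8, beside 62.2% of all genes, and 7 without edc-4 replicate 4 or without double replicate 4, where fbn-1 was lost. It was 3 without all libraries numbered 4, beside 31.4% of all genes, with r at -0.0046 for fbn-1. With library size alone and no TMM factors, r over the 16 libraries was higher for each of the 8 genes. For fbn-1 it was then 0.756 (permutation p = 0.00116), against 0.54 with TMM factors, so the strength of that relation depended on the scaling. Over the whole table, the number of genes called was 14 to 40 in edc-3, 7 to 53 in edc-4 and 17 to 110 in the double mutant over all settings, against 24, 24 and 35 as reported.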
